A study of Rattus norvegicus with 12 samples.

Results

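Described here are 6 microRNA (miRNA) hairpins of the rat Hox gene clusters, as measured in the aorta. They are miR-10a, miR-10b, miR-196a, miR-196b, miR-196c and miR-615, taken by name with every arm listed. That gave 11 of the 641 rows of the deposited table. Of these, 8 reached 1 rpm (reads per 1000000 reads of the library) in 6 or more of 12 libraries and were tested, and the 3 passenger (3p) arms of the miR-196 hairpins did not.

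Small RNA was sequenced in 12 libraries from aortas of female spontaneously hypertensive rats (SHR), a strain bred for hypertension. The EWH group comprised 6 libraries with the treatment label EWH, and the control group 6 libraries from rats given saline. By its title the study concerned peptides derived from egg white and blood pressure, so the comparison asks which aortic miRNAs differ between EWH and saline. Strain, sex and tissue were the same in both groups, while age, dose, duration and the segment of the aorta were not given in the sources used here. Since the labels do not tie each library to its own animal, the p-values measure spread between libraries alone, which may be technical.

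Hox genes encode transcription factors that set position along the head-to-tail axis, and their order within each cluster follows the order of the body regions in which they act. MiR-10 hairpins lie beside anterior and middle Hox genes and miR-196 hairpins beside posterior ones. MiR-196 is known in the mouse for directing cleavage of Hoxb8 mRNA, and miR-10a is known in endothelial cells of pigs and humans for restraining NF-kB signalling. Smooth muscle cells of the adult aorta are known to keep region-specific Hox expression.

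By the gene order of RefSeq's table (assembly GRCr8, used here for order only, since the submitters' processing notes name the build rn6), Mir10a lies between Hoxb5 and Hoxb4. Mir10b lies within the annotated span of Hoxd4. Mir196a lies between Hoxc10 and Hoxc9, Mir196b between Hoxa9 and Hoxa10, and Mir196c between Hoxb13 and Hoxb9. Mir615 lies within the annotated spans of Hoxc5 and Hoxc6. None of the 6 hairpins overlapped another annotated miRNA hairpin there.

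The guide (5p) arms of miR-10 and miR-196 are shown because their differences decide which reads can be told apart. Listed with them is the single listed arm of miR-615, which was not established here as its guide. RefSeq (GRCr8) held the mature sequence of 10 of the 11 rows. Capitals mark the seed, bases 2 to 8, through which an miRNA pairs with its targets.
rno-miR-10a-5p: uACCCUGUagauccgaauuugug
rno-miR-10b-5p: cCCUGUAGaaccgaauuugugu
rno-miR-196a-5p: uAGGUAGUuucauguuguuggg
rno-miR-196b-5p: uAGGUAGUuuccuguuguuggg
rno-miR-196c-5p: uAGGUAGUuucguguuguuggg
rno-miR-615: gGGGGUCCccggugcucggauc
The miR-196 guides shared 1 seed, which no other mature miRNA in the RefSeq table had, and they differed from each other at a single base. Counted from 1 at the 5′ end of miR-196a-5p, the change was A12C to miR-196b-5p and A12G to miR-196c-5p. The same 7 bases stood at bases 3 to 9 of 7 of the 8 let-7 guides in the table, 1 position away from the let-7 seed. The annotated miR-10 guides did not share a seed. The hairpins below, with the annotated guide in capitals, show that miR-10b-5p is annotated to start 2 bases later than miR-10a-5p.
Mir10a hairpin: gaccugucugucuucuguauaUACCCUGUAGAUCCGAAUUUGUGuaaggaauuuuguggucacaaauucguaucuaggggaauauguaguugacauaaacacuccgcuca
Mir10b hairpin: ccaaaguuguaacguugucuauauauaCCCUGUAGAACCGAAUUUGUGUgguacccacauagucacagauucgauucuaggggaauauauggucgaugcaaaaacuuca
In the same register as miR-10a-5p the Mir10b hairpin differed over 23 bases by the change U12A, counted from the 5′ end of miR-10a-5p. How the authors counted reads that begin before an annotated start, or that are 1 base away from another miRNA, is not given in the sources used here. Levels of the near-identical miR-10 and miR-196 guides are therefore uncertain to that extent.

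Library totals were 23887799 to 24772944 reads, of which 76.4% to 80.6% fell in listed miRNAs. A single read amounted to 0.0404 to 0.0419 rpm. A value of 0 allowed a level of up to 0.121 to 0.126 rpm (3 reads, counting error only). The smooth muscle hairpins miR-143 and miR-145 together held 331968 to 428677 rpm in EWH and 347013 to 426858 rpm in control and were abundant in every library. The endothelial miR-126a held 4264 to 6913 rpm in EWH and 3290 to 12305 rpm in control. Control 1 was the highest of 12 libraries in 77 of the 303 tested miRNAs and the lowest in 44. EWH 2 was the lowest in 79, and EWH 4 was the highest in 79.

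The guide rno-miR-10a-5p was the most abundant of these miRNAs in all 12 libraries. It ranked 7 among the 641 rows by mean level. It ran from 19003 to 26385 rpm in EWH, with a median of 23419 rpm, and from 14813 to 24486 rpm in control, with a median of 20911 rpm. The groups overlapped, with 3 EWH libraries above the highest control and the lowest values in controls 6 and 2. It held 94.6% to 97.1% of the reads of all 11 rows in EWH and 94.1% to 99.5% in control. Together the rows took 2.54% to 3.41% of the listed reads in EWH and 1.98% to 3.26% in control.

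The posterior rno-miR-196a-5p and rno-miR-196b-5p came next. MiR-196a-5p ran from 317 to 562 rpm in EWH, with a median of 477 rpm. In control it ran from 10.2 to 558 rpm, with a median of 424 rpm. MiR-196b-5p ran from 391 to 494 rpm in EWH, with a median of 432 rpm, and from 50.9 to 462 rpm in control, with a median of 392 rpm. In both miRNAs the lowest value was that of control 1 and the other 5 controls lay among or near the EWH libraries. The third guide, rno-miR-196c-5p, was low, at 2.14 to 3.77 rpm in EWH with a median of 3.09 rpm and at 0.244 to 3.29 rpm in control with a median of 2.498 rpm, where control 1 was again the lowest.

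The passenger strand rno-miR-10a-3p ran from 28.5 to 48.6 rpm in EWH (median 39.1 rpm) and from 33.9 to 57.6 rpm in control (median 47.0 rpm). The guide rno-miR-10b-5p ran from 8.33 to 12.1 rpm in EWH (median 9.61 rpm) and from 4.67 to 11.0 rpm in control (median 7.07 rpm). Its partner rno-miR-10b-3p ran from 4.48 to 8.85 rpm in EWH (median 6.64 rpm) and from 4.47 to 9.27 rpm in control (median 7.42 rpm). The groups overlapped in all 3, with the lowest miR-10b values of both arms in control 1. MiR-10b-5p reached 0.0342% to 0.0479% of the miR-10a-5p level in EWH and 0.0200% to 0.0535% in control. The single listed arm of miR-615, rno-miR-615, is annotated on the 5′ side of its hairpin and ran from 1.59 to 2.80 rpm in EWH (median 1.78 rpm) and from 0.650 to 2.31 rpm in control (median 1.596 rpm). The 3p arms of miR-196a, miR-196b and miR-196c summed to 36 reads over 12 libraries, with at most 4 reads of an arm in a library, so their levels could not be compared at this depth.

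**Figure D1:**
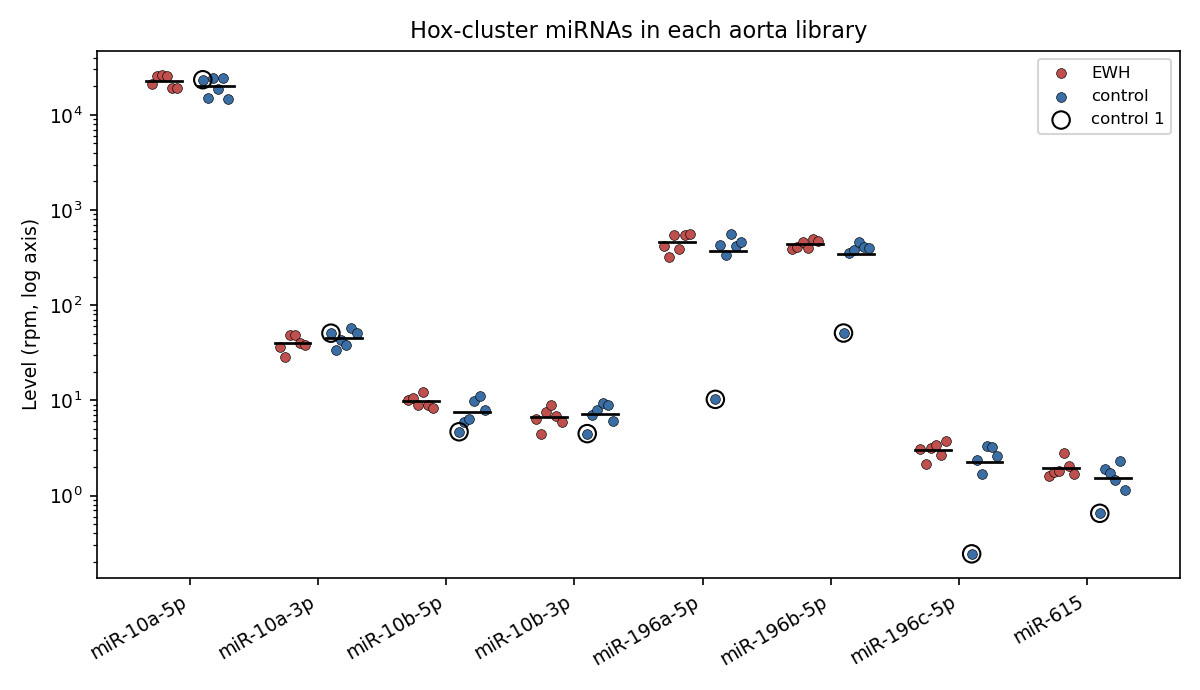
Level of the 8 tested Hox-cluster miRNAs in rpm on a log axis, 1 point per library with EWH on the left and control on the right of each pair, a bar at each group mean and a ring around control 1. MiR-10a-5p lies between 14813 and 26385 rpm, and control 1 lies far below the other libraries in miR-196a-5p, miR-196b-5p and miR-196c-5p.

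In order of mean level over 12 libraries came miR-10a-5p (21438 rpm), miR-196a-5p (414 rpm), miR-196b-5p (390 rpm), miR-10a-3p (42.8 rpm), miR-10b-5p (8.72 rpm), miR-10b-3p (6.98 rpm), miR-196c-5p (2.64 rpm) and miR-615 (1.74 rpm). These are rpm levels, and differences between miRNAs also carry ligation and amplification bias. Places of the miR-10 and miR-196 guides also depend on how near-identical reads were counted, which is not known. That of miR-10b-5p further depends on how reads beginning before its annotated start were counted. MiR-196a-5p exceeded miR-196b-5p in 8 of 12 libraries, and this pair could not be ordered beyond its spread. MiR-10b-5p exceeded miR-10b-3p in 10 of 12, and miR-196c-5p exceeded miR-615 in 10 of 12, with overlapping ranges. The other 4 neighbouring pairs among the 8 had the same order in all 12 libraries. In control 1, however, miR-196b-5p (50.9 rpm, 1254 reads) and miR-10a-3p (50.8 rpm, 1250 reads) lay within counting error of each other. That miR-196b-5p value also fell within the range of miR-10a-3p over all libraries.

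Control 1 stood apart in the miR-196 family. MiR-196a-5p read 10.2 rpm there, or 252 reads, with an exact Poisson 95% interval of 9.01 to 11.6 rpm for counting error. The other 11 libraries lay between 317 and 562 rpm, with a median of 433 rpm, which was 42.3 times the level of control 1. MiR-196b-5p read 50.9 rpm in control 1 (1254 reads, interval 48.2 to 53.8 rpm) against 356 to 494 rpm in the others, whose median was 7.99 times the level of control 1. MiR-196c-5p read 0.244 rpm (6 reads, interval 0.0894 to 0.531 rpm) against 1.69 to 3.77 rpm. The 3 hairpins lie in 3 different Hox clusters, each beside genes of the posterior end. Their guides differ by 1 base, and how such reads were counted is not known. The 3 low values were therefore not shown to be independent, least of all that of miR-196c-5p with 6 reads.

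The shortfall of control 1 was not equal within the family. The ratio of miR-196a-5p to miR-196b-5p was 0.780 to 1.19 in EWH and 0.878 to 1.21 in controls 2 to 6, and 0.201 in control 1. MiR-196c-5p amounted to 0.493% to 0.885% of miR-196a-5p in EWH, to 0.505% to 0.787% in controls 2 to 6, and to 2.38% in control 1. That 2.38% rested on 6 reads of miR-196c-5p over 252 of miR-196a-5p, and largely restates the fall of miR-196a-5p. For miR-196c-5p the median of the other libraries was 12.5 times control 1, between the 7.99 of miR-196b-5p and the 42.3 of miR-196a-5p.

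The anterior miR-10a-5p did not share this pattern. Control 1 read 23366 rpm of it, within the range of the other 11 libraries (14813 to 26385 rpm). Its 3p arm, at 50.8 rpm in control 1 against 28.5 to 57.6 rpm, lay within the others as well. MiR-615 was at its lowest in control 1 (0.650 rpm from 16 reads, against 1.14 to 2.80 rpm), as was miR-10b-5p (4.67 rpm from 115 reads, against 5.89 to 12.1 rpm), and miR-10b-3p by a margin under 1 read (4.47 rpm against 4.48 to 9.27 rpm). Control 1 was thus the lowest library for 6 of the 8 members, and for 44 (14.5%) of the 303 tested miRNAs.

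**Figure D2:**
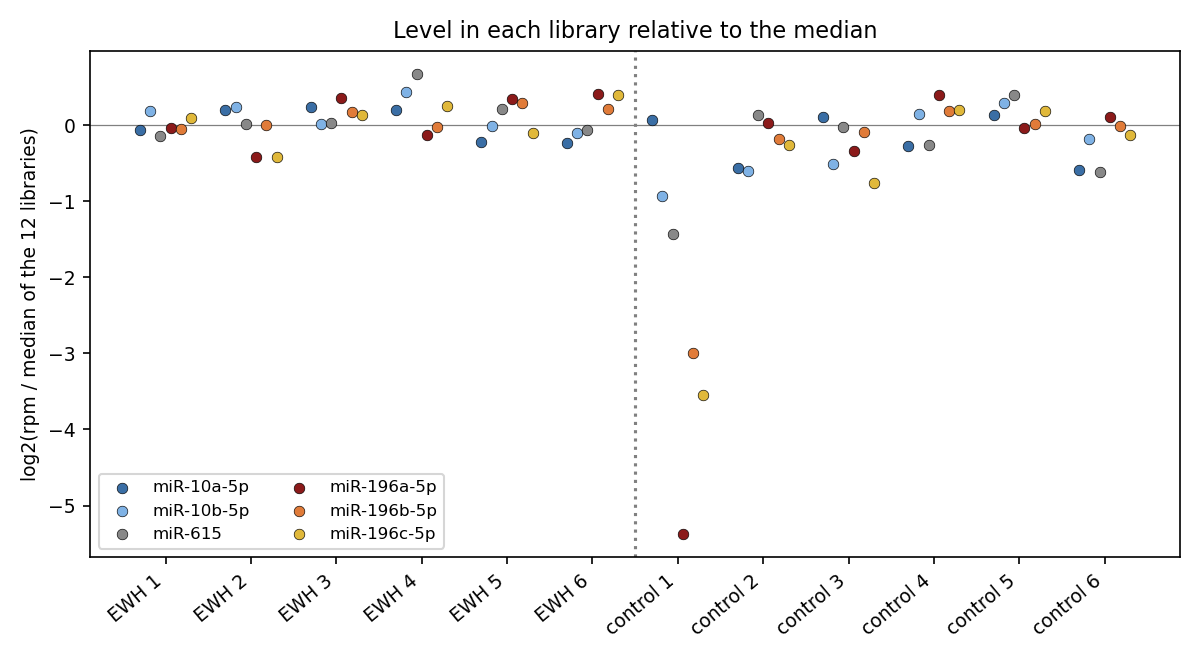
Level of 6 Hox-cluster miRNAs in each library as log2 of rpm over the median of the 12 libraries, with EWH libraries left of the dotted line and controls right of it. The miR-196 guides fall far below the line in control 1 while miR-10a-5p stays near it, and no other library departs as far.

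Among all 303 tested miRNAs, the distance on the log2(rpm + 1) scale between the lowest library and the next was widest for miR-196a-5p, at 4.82. MiR-196b-5p came second at 2.78 and miR-196c-5p ranked 4 at 1.11, all with control 1 as the lowest library. The third was the epithelial and endocrine miR-375-3p at 1.45, also lowest in control 1, and the fifth the liver miR-122-5p at 0.99, again in control 1 (both named after their values were seen). On that scale no library other than control 1 held a tested miRNA more than 1 log2 unit below the next library. The order depends on the pseudocount. With 0.1 rpm in its place, an alternative added after seeing the data, miR-196a-5p ranked 1 (4.94), miR-375-3p 2 (3.12), miR-196b-5p 3 (2.80) and miR-196c-5p 4 (2.38), and gaps over 1 log2 unit were also present for 1 miRNA in EWH 2 and 2 in control 4. In the upward direction, 13 tested miRNAs lay more than 1 log2 unit above the next library in control 1, 9 in EWH 4, 9 in control 6 and 1 in control 2.

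**Figure D3:**
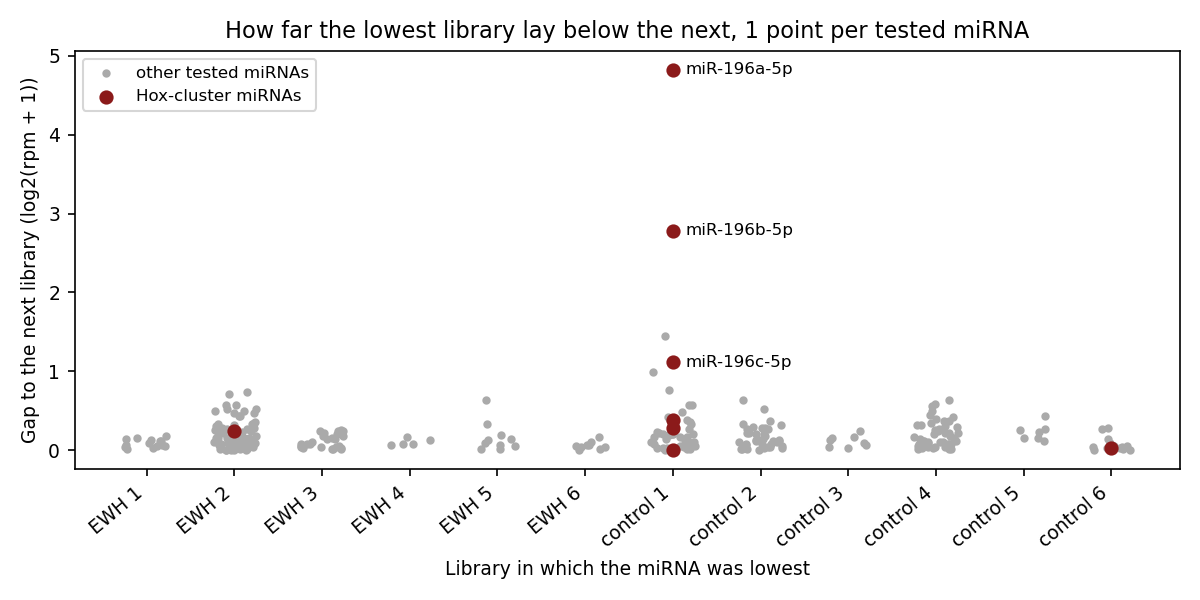
Distance in log2(rpm + 1) from the lowest library to the next for each tested miRNA, placed by the library in which it was lowest, EWH libraries first. MiR-196a-5p (4.82), miR-196b-5p (2.78) and miR-196c-5p (1.11) stand out above control 1.

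Markers of other cell types also stood apart in control 1. The endothelial miR-126a arms summed to 12305 rpm there against 3290 to 6913 rpm in the other 11 libraries, and both tested arms were highest in control 1. The adipocyte-enriched list (miR-193a, miR-193b, miR-365) summed to 127 rpm against 29.8 to 63.8 rpm, with both tested arms highest in control 1. The leukocyte list reached 231 rpm against 87.4 to 198 rpm, with 1 of 5 tested arms highest in control 1. The erythrocyte list was lowest, at 80.4 rpm against 107 to 385 rpm, with all 4 tested arms lowest in control 1, and the liver miR-122 was also lowest, at 37.4 rpm against 75.1 to 1006 rpm. The epithelial list (609 rpm against 64.4 to 729 rpm), the skeletal and cardiac muscle list (590 rpm against 428.7 to 1439 rpm), the neuron and glia list (136 rpm against 82.6 to 1139 rpm) and smooth muscle (347013 rpm against 331968 to 428677 rpm) lay within the others. Some single arms of those lists lay outside. Control 1 was the lowest library in 2 of 7 tested epithelial arms and the highest in 1. It was the lowest in 2 of 5 skeletal and cardiac muscle arms and in 2 of 4 smooth muscle arms. Of 6 neuron and glia arms it was the lowest in 1 and the highest in 1. No listed arm of all these lists was at 0 in all libraries. Their part in the miR-196 levels of control 1 was not tested. In bulk tissue, fewer cells of a type and less RNA per cell cannot be told apart.

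No Hox-cluster miRNA passed the test between EWH and control. Of the 8 tested, 0 passed limma after Benjamini-Hochberg adjustment at 0.05, and 0 (0%) of the 303 tested miRNAs did, with 70 (23.1%) at an unadjusted p under 0.05 and none of the 8 among them. On the recovered reads edgeR called 40 (13.2%) of the 303 and DESeq2 63 (20.8%), with 0 of the 8 in either. For none of the 8 were the groups apart, as they were for 5 (1.65%) of the tested miRNAs. Adjusted p for the 8 ran from 0.258 to 0.799 with limma, from 0.276 to 0.798 with edgeR and from 0.227 to 0.788 with DESeq2.

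Mean levels were higher in EWH for 6 of the 8 and lower for 2, with a median log2 fold change of 0.31 on the log2(rpm + 1) scale, where the median of all tested miRNAs was −0.06. That scale understates the change of low miRNAs. Without control 1 the split was also 6 and 2, with medians of 0.12 for the 8 and −0.03 for all tested.

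MiR-10a-5p averaged 22815 ± 3435 rpm in EWH and 20062 ± 4515 rpm in control (SD, n = 6 each). Its log2 fold change was 0.20 (SE 0.15, 95% interval −0.13 to 0.54), with limma's Benjamini-Hochberg adjusted p at 0.468. Its direction depended on the scaling, since quantile normalization gave −0.18, and it was 0.13 without control 2 and 0.12 without control 6. MiR-10a-3p averaged 39.97 ± 7.65 rpm in EWH and 45.7 ± 8.88 rpm in control (SD, n = 6 each), a log2 fold change of −0.19 (interval −0.55 to 0.18), which was −0.098 without EWH 2 and −0.12 without control 5. MiR-10b-5p averaged 9.84 ± 1.39 rpm in EWH and 7.59 ± 2.45 rpm in control (SD, n = 6 each). Its log2 fold change was 0.37 (interval −0.04 to 0.79). The limma p of miR-10b-5p was the smallest of the 8 (unadjusted p = 0.0723, Benjamini-Hochberg adjusted p = 0.258). All 6 EWH libraries lay above the control median. With each library left out the fold change ran from 0.26 (without control 1) to 0.48 (without control 5), and quantile normalization gave 0.23. Without control 1 miR-10a-5p had the smaller p (limma unadjusted p = 0.140 against 0.156). MiR-10b-3p, the other arm, had a log2 fold change of −0.09 (interval −0.50 to 0.32), which was 0.0022 without EWH 2 and −0.20 without control 1, and ran between those values with any other library left out.

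For the miR-196 family the result turned on control 1. MiR-196a-5p averaged 460 ± 101 rpm in EWH and 368 ± 189 rpm in control (SD, n = 6 each), a log2 fold change of 0.93 (SE 0.81, interval −0.83 to 2.70). On the recovered reads of all 12 libraries edgeR gave 0.35 and DESeq2 0.34. Without control 1 the control mean was 439 ± 80.7 rpm (SD, n = 5) and the log2 fold change 0.06 (SE 0.17, interval −0.33 to 0.44). MiR-196b-5p averaged 436 ± 43.3 rpm in EWH and 344 ± 148 rpm in control (SD, n = 6 each), a log2 fold change of 0.61 (interval −0.38 to 1.59), where edgeR and DESeq2 both gave 0.38. Without control 1 the control mean was 403 ± 39.4 rpm (SD, n = 5) and the log2 fold change 0.11 (interval −0.09 to 0.32). For miR-196c-5p the log2 fold change was 0.41, and 0.15 without control 1; it was 0.70 with a pseudocount of 0.1 rpm, 0.16 with 5 rpm and 0.26 after quantile normalization. MiR-615 averaged 1.94 ± 0.445 rpm in EWH and 1.54 ± 0.589 rpm in control (SD, n = 6 each), with a log2 fold change of 0.24, and 0.12 without control 1. At that low level it was 0.39 with a pseudocount of 0.1 rpm, 0.090 with 5 rpm and 0.018 after quantile normalization, against 0.37 by both edgeR and DESeq2. Without control 1 the intervals of miR-196a-5p and miR-196b-5p lay within 0.44 log2 units of no change. Control 1 was singled out by these same miR-196 values, so the narrower intervals do not bound the difference over all 12 libraries. Without control 1, limma's Benjamini-Hochberg adjusted p for the 8 ran from 0.349 to 0.869.

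**Figure D4:**
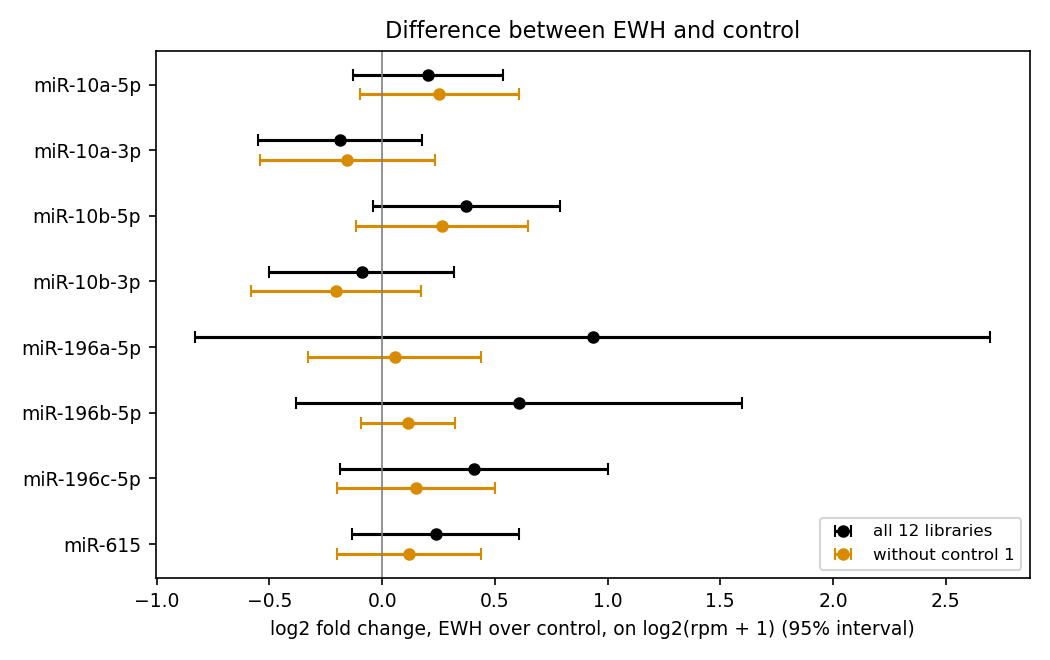
Log2 fold change of EWH over control on log2(rpm + 1) for the 8 miRNAs, with 95% intervals from limma, in black for all 12 libraries and in orange without control 1. All intervals include 0, and those of miR-196a-5p and miR-196b-5p narrow from −0.83 to 2.70 and −0.38 to 1.59 with all libraries to −0.33 to 0.44 and −0.09 to 0.32 without control 1.

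The arms of the miR-10 hairpins were then compared as ratios within a library, a measure that library scaling leaves nearly unchanged. The miR-10b ratio still depends on how reads beginning before the annotated miR-10b-5p start were counted, which is not known. Both ratios depend on how reads of the near-identical miR-10 guides were assigned. For miR-10a the 5p to 3p ratio ran from 471 to 897 in EWH, with a median of 537, and from 294 to 555 in control, with a median of 453. For miR-10b it ran from 1.19 to 2.35 in EWH, with a median of 1.38, and from 0.801 to 1.31 in control, with a median of 1.06. In miR-10b, 4 EWH libraries lay above the highest control and 4 controls below the lowest EWH library. EWH 2 gave the highest ratio of both hairpins.

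On log2((5p + 1)/(3p + 1)) the difference was 0.39 (SE 0.17, 95% interval 0.04 to 0.75) for miR-10a and 0.47 (SE 0.16, interval 0.13 to 0.80) for miR-10b. Neither passed limma after Benjamini-Hochberg adjustment over the 67 hairpins with both arms tested (unadjusted p = 0.0323 and adjusted p = 0.194 for miR-10a, 0.00988 and 0.165 for miR-10b). Of the 67, 0 (0%) passed and 13 (19.4%) lay at an unadjusted p under 0.05, these 2 among them. Without EWH 2 the differences were 0.27 (interval −0.04 to 0.57) and 0.35 (interval 0.06 to 0.64). The miR-10a difference was also smaller without control 6, at 0.28 (limma unadjusted p = 0.0834), and without controls 5 and 6 together, at 0.24 (unadjusted p = 0.160).

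**Figure D5:**
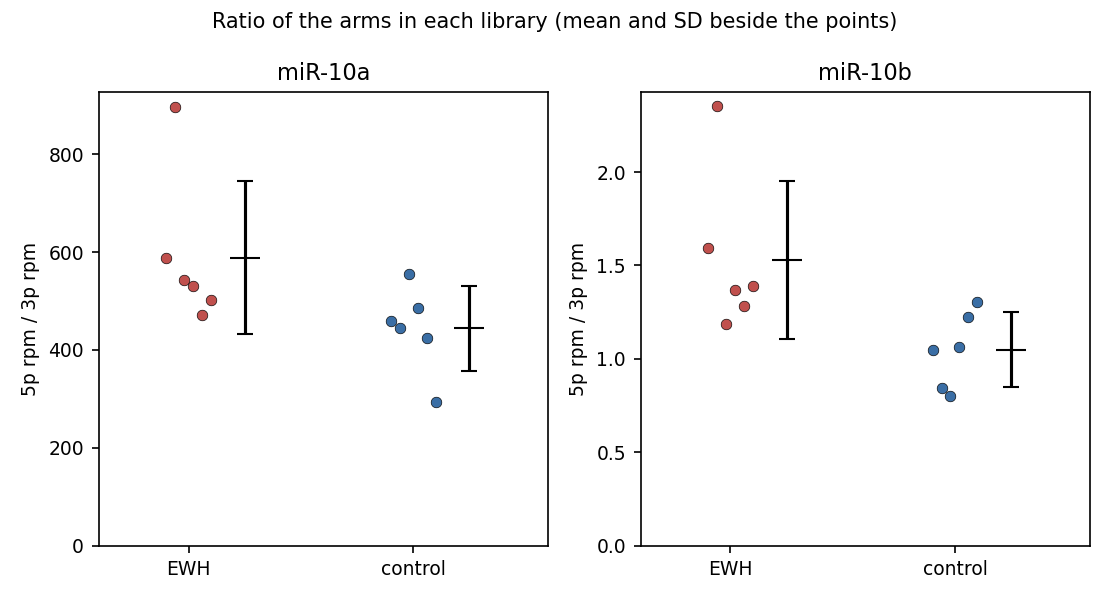
Ratio of 5p to 3p rpm in each library for miR-10a and miR-10b, EWH left of control, 1 point per library with the mean and SD beside the points. The EWH points run from 471 to 897 and from 1.19 to 2.35, the control points from 294 to 555 and from 0.801 to 1.31, and the groups overlap in both panels.

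Across libraries, 7 pairs of these miRNAs were correlated on log2(rpm + 1), with p from 100000 permutations adjusted over the 7 (Benjamini-Hochberg). Over all 12 libraries miR-196a-5p followed miR-196b-5p (Pearson r = 0.99, permutation p = 0.00034, adjusted 0.00238; Spearman rho = 0.75, permutation p = 0.0069, adjusted 0.0483). It followed miR-196c-5p as well (r = 0.93, permutation p = 0.00132, adjusted 0.00462; rho = 0.66, permutation p = 0.0219, adjusted 0.0767). Both relations rested in part on control 1. Without it r was 0.74 (permutation p = 0.0104, adjusted 0.0731) and 0.65 (permutation p = 0.0316, adjusted 0.110), and without control 1 and EWH 2, the 2 libraries farthest from the median of miR-196a-5p, it was 0.83 and 0.57. Within EWH the 2 values of r were 0.84 and 0.57 (exact permutation p = 0.0806 and 0.253), and within control 0.996 and 0.96 (exact permutation p = 0.0139 and 0.0125), with control 1 among them.

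The other 5 pairs did not pass over 12 libraries. MiR-10a-5p had r = 0.31 with miR-10b-5p (rho = 0.52, permutation p = 0.329 and 0.0849) and r = 0.20 with its own 3p arm (rho = 0.23, permutation p = 0.529 and 0.470). With each library left out, r ran from 0.130 (without control 2) to 0.547 (without control 1) for the first pair, and from 0.0346 (without control 2) to 0.503 (without EWH 2) for the second. The arms of miR-10b had r = 0.43 (rho = 0.42, permutation p = 0.161 and 0.176). That pair passed without EWH 2 (r = 0.683, permutation p adjusted to 0.0465) and had r = 0.133 without control 1. MiR-196a-5p had r = −0.23 with miR-10a-5p (rho = −0.42, permutation p = 0.520 and 0.178), and r = −0.406 without control 1. With miR-10b-5p it had r = 0.63 over 12 libraries (permutation p = 0.0436, adjusted 0.102; rho = 0, permutation p = 1), and r = −0.0245 without control 1. Within EWH it was −0.82 (rho = −0.89, exact permutation p = 0.0389 and 0.0333, adjusted 0.272 and 0.233) and within control 0.69 (rho = 0.54, exact permutation p = 0.0417 and 0.297, adjusted 0.0972 and 0.347), with control 1 among the controls; the difference between the groups was not tested.

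Outside these hairpins, the tested miRNAs with the highest Pearson r over 12 libraries are given as a description, since they were picked for it and share the libraries' composition. Let-7c-5p, a let-7 guide, was the likest to miR-196a-5p (r = 0.82, rho = 0.62), miR-196b-5p (r = 0.83, rho = 0.74) and miR-196c-5p (r = 0.90, rho = 0.83). Without control 1 its r was 0.60, 0.70 and 0.74. Let-7c-5p was also lowest in control 1, at 11854 rpm against at least 20047 rpm elsewhere. MiR-214-3p (r = 0.72) and miR-130a-3p (r = 0.67) followed for miR-196a-5p, miR-214-3p (r = 0.67, and 0.20 without control 1) and let-7b-5p (r = 0.67) for miR-196b-5p, and let-7b-5p (r = 0.78) and miR-214-3p (r = 0.75) for miR-196c-5p. MiR-10a-5p was most like miR-361-3p (r = 0.74, rho = 0.83), miR-708-5p (r = 0.73) and miR-203b-3p (r = 0.69). MiR-10a-3p was most like miR-28-5p (r = 0.78, rho = 0.80), miR-19b-3p (r = 0.76) and miR-126a-5p (r = 0.72). MiR-10b-5p was most like let-7c-5p (r = 0.73, rho = 0.56), let-7b-5p (r = 0.71) and miR-1-3p (r = 0.59), and miR-10b-3p most like miR-361-5p (r = 0.83, rho = 0.70), miR-199a-3p (r = 0.76) and let-7e-3p (r = 0.74). For miR-615, let-7c-5p, miR-541-5p and miR-411-5p each had r = 0.71. Without control 1, let-7c-5p had r = 0.35 with miR-615 and 0.48 with miR-10b-5p, while miR-541-5p and miR-411-5p had 0.72 and 0.75 with miR-615.

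The miR-99 and miR-100 miRNAs, relatives of miR-10 by sequence that lie outside the Hox clusters, were compared as a list, and miR-99b-5p and miR-100-5p share a seed that differs from that of miR-10a-5p. Of 6 listed arms 4 were tested and 0 passed limma. Their median log2 fold change was 0.02, and EWH was higher in 2 and lower in 2. MiR-99a-5p, the most abundant, averaged 38279 ± 6010 rpm in EWH and 35107 ± 2696 rpm in control (SD, n = 6 each). MiR-100-5p averaged 5139 ± 475 rpm in EWH and 5344 ± 109 rpm in control (SD, n = 6 each). In control 1 they read 32862 and 5505 rpm.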

How the data were processed

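Small RNA libraries were made from Trizol-extracted total RNA by ligating adaptors to both ends, RT-PCR and recovery of inserts of 15 to 35 nt, per the labels' protocols. The build was rn6, per the submitters' processing notes; aligner, counter, strand setting and miRNA annotation were not given in the sources used here. For the 12 libraries the authors deposited values as rpm (reads per 1000000 library reads), although the table is named for TPM: 100% of values were whole multiples of 1 step per library, within 0.01 read, so whole reads were recovered.

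The 303 rows that reached 1 rpm in 6 or more libraries were compared as log2(rpm + 1) with limma 3.58.1 (trend, two-sided; R 4.3.3), with Benjamini-Hochberg adjustment over all 303. Arm ratios were tested over 67 hairpins. Alternatives were filters, pseudocounts of 0.1 and 5, scalings, variance models, the replicate number as a block, libraries left out, and edgeR 4.0.16 and DESeq2 1.42.0 on recovered reads; edgeR without control 1 was added after seeing the data. The procedures were tested on simulated counts. Permutations used numpy 2.4.6 and figures matplotlib 3.10.9. The text names all 11 rows, the likest other miRNAs by Pearson r (3 per member) and the miR-99/100 relatives; other names are marked. Members, lists and alternatives were chosen with earlier results of these data known. Marker lists are given as sums.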

Additional observations from a re-analysis of the deposited data

Results flagged for a closer look

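Each group of 6 was checked for a library far from the rest of its group, in 40 sets of values, of which 8 were flagged; chance flags about 1 in 20, and the measures share data. Control 1 accounted for 4, all built from the same miR-196 values. Its miR-196b-5p level was 50.9 rpm against 356 to 462 rpm in the other controls, its summed miR-196 guides were 61.4 rpm against 717 to 1023 rpm, its ratio of miR-196a-5p to miR-196b-5p was 0.201 against 0.878 to 1.21, and its miR-196c-5p was 2.38% of miR-196a-5p against 0.505% to 0.787%. The miR-196a-5p level of control 1 was not flagged on the rpm scale used by this check. On log2(rpm + 1) its gap of 4.82 was the widest of all tested miRNAs. EWH 2 was flagged for both arm ratios, at 897 against 471 to 587 for miR-10a and 2.35 against 1.19 to 1.59 for miR-10b. EWH 4 was flagged for miR-615, at 2.80 rpm against 1.59 to 2.03 rpm. EWH 1 was flagged for miR-196b-3p, at 0.163 rpm (4 reads) against at most 0.0415 rpm.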

How the results depend on the processing

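No Hox-cluster miRNA was called under any of 27 alternatives, and 210 of 212 member results and 41 of 41 arm-ratio results kept their direction. The exceptions were miR-10a-5p after quantile normalization (−0.18) and miR-10b-3p without EWH 2 (0.0022, in a leave-one-out range of −0.20 to 0.0022); the cause was not tested. The 4 members that reached 10 rpm in fewer than 6 libraries, and the miR-10b arm ratio, had no value at a filter of 10 rpm. The count over all tested miRNAs was 0 with limma, 40 with edgeR, 63 with DESeq2, 8 after quantile normalization, 1 without EWH 3 and 4, 1 without controls 5 and 6, 0 to 24 with each library left out (24 without EWH 2, 1 without EWH 4), and 0 with edgeR without control 1. A pairing by replicate number was not shown: same-numbered deviations correlated at −0.50 to 0.31, and 1 of 6 EWH libraries correlated best with its own number. These 6 correlations, without a test, cannot exclude a pairing. With the replicate block 0 were called, members included, and miR-10b-5p had a log2 fold change of 0.37 (limma, Benjamini-Hochberg adjusted p = 0.342). Of 7 correlated pairs, 2 passed, 0 to 3 with each library left out (0 without control 1, 3 without EWH 2). The correlation of miR-10a-5p with its 3p arm was −0.12 when scaled to listed reads without miR-143-3p, and that of miR-196a-5p with miR-10b-5p was −0.0245 to 0.726 with each library left out (−0.0245 without control 1). Depth limits miR-196c-5p, miR-615 and the miR-196 3p arms.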
